A study of Mus musculus with 4 samples.

Results

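The receptors by which platelets hold on to von Willebrand factor (VWF) and collagen were examined in tibial bone marrow of obese mice with and without exercise. Their genes were found by symbol in the deposited transcript tables: Gp1ba, Gp1bb, Gp5, Gp9, Gp6, Clec1b, Fcer1g, Vwf, Itga2b and Itga2, 10 genes of the 55401 listed. They were chosen by their own values in these libraries, lower after exercise, so their values between the groups are a description and carry no test. All the mice were male, of the strain WT, C57/B6, and were given a high-fat diet (HFD) from the age of 8 weeks. After the diet alone had made them obese, the mice were divided at random. One set (obesity, Ob) had no other intervention. The other (Ob + Exe) then also ran on a treadmill at moderate intensity for 12 weeks under the same diet. Each group had 2 RNA-seq libraries, called Ob 1, Ob 2, Ob + Exe 1 and Ob + Exe 2 after the replicate numbers of the labels. No group on a regular diet was among them. The sources used here do not say which mouse stands behind which library, so the spread between libraries may be technical in part.

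Platelets are shed by megakaryocytes, large cells of the marrow that make the receptor messages while they mature. At a damaged vessel wall VWF unfolds on collagen and is caught by the GPIb-IX-V complex, which holds GPIbα (Gp1ba), GPIbβ (Gp1bb), GPIX (Gp9) and GPV (Gp5). GPVI (Gp6) then binds collagen and signals through the Fc receptor γ-chain (Fcer1g), CLEC-2 (Clec1b) signals through a related motif when it meets podoplanin, and the integrins αIIb (Itga2b) and α2 (Itga2) bind fibrinogen and collagen.

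The depth behind the values was 8702 to 9952 Mb of aligned bases per library, and the fewest read equivalents behind a member in a library were 140 (Gp1bb in Ob + Exe 1). A read equivalent is the number of reads that the coverage of a transcript of that length would take. Values are FPKM, that is, fragments scaled to transcript length and library size, summed over the transcripts of a gene and scaled between libraries. Bone marrow is the labelled tissue, though the labels also carry the terms mesenchymal stem cells and fibroblast. A list of 16 mesenchymal and fibroblast genes summed to a scaled FPKM of 298 to 405, most of it from Vim (156 to 218), which many marrow cells express, and Cxcl12 (89.3 to 143). Pdgfra was at 0.265 to 0.385, Lum at 0.248 to 0.818 and Dcn at 3.42 to 6.35. The 16 neutrophil genes summed to 29534 to 68310 and 11 erythroid genes to 54698 to 81840, so blood cell RNA made up far more of the libraries than these markers did. In such bulk RNA, fewer megakaryocytes and less receptor RNA per megakaryocyte cannot be told apart.

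All 10 genes passed the minimum mean FPKM of 0.1. After exercise both libraries were under the lower Ob library for 7 of them, Gp1ba, Gp1bb, Gp5, Gp9, Gp6, Clec1b and Itga2, and the groups overlapped for Fcer1g, Vwf and Itga2b. Of the 18596 genes tested, 18.7% had both Ob + Exe libraries under both Ob ones and 14.0% had both above, and nothing is read from the count of 7, since the genes were chosen for this contrast. The thresholds of the study's methods (unadjusted p under 0.05 and a log2 difference beyond 1) were passed by 5 members, Gp1ba, Gp1bb, Gp5, Clec1b and Itga2, against 3.71% of all genes in either direction and 2.73% in the lower direction. The median log2 difference of the 10 genes was -1.01, beside -0.02 over all genes tested. Since the genes were chosen for this contrast, nothing is read from the count of 5 or from this median either. The plot of the 10 genes by library shows these values.

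**Figure D1:**
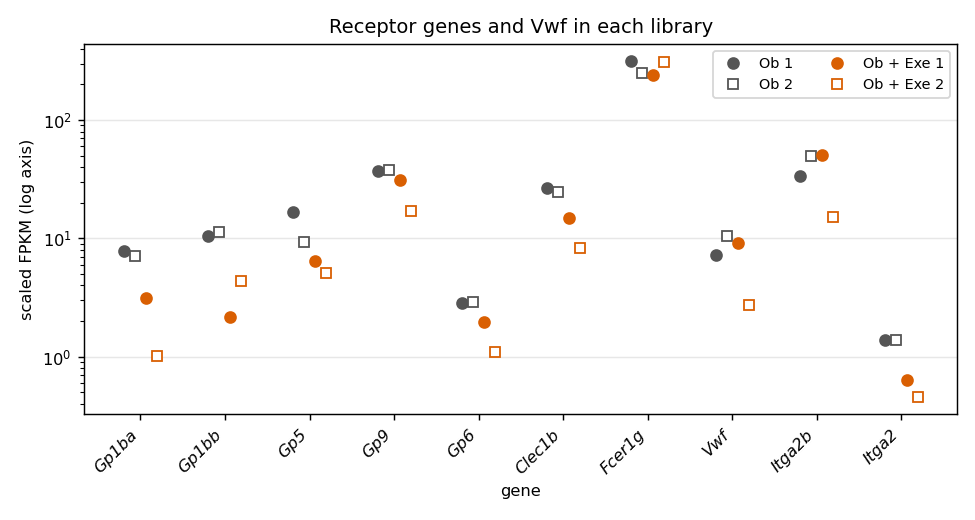
Scaled FPKM (log axis) of the 10 genes in the 4 libraries, Ob in grey and Ob + Exe in orange, with filled circles for replicate 1 and open squares for replicate 2. The orange points lie below both grey points for 7 genes, and for Fcer1g, Vwf and Itga2b they overlap.

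All 4 genes of the GPIb-IX-V complex were lower in both Ob + Exe libraries. The difference of the VWF-binding chain was the largest of them with all libraries and transcripts, though not without Ob + Exe 2 (-1.24 for Gp1ba, -2.28 for Gp1bb) or with the most abundant transcript alone (-0.78 and -2.68). Gp1ba (ENSMUSG00000050675.7), on chromosome 11 (GRCm38, plus strand) from 70639122 to 70642036, had a scaled FPKM of 7.86 in Ob 1, 7.15 in Ob 2, 3.13 in Ob + Exe 1 and 1.02 in Ob + Exe 2. The Ob libraries were close to each other, at 7.503 ± 0.505 (SD, n = 2), the Ob + Exe libraries were spread, at 2.08 ± 1.49 (SD, n = 2), and the groups did not overlap. The log2 difference, taken between means of logs, was -1.997, and the mean scaled FPKM itself was 3.61-fold lower. These values rested on 1377, 1221, 496 and 152 read equivalents.

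Gp1bb encodes the chain that is disulfide-linked to GPIbα and lies on the minus strand of chromosome 16, from 18620317 to 18622403. Its scaled FPKM was 10.6 in Ob 1, 11.3 in Ob 2, 2.18 in Ob + Exe 1 and 4.40 in Ob + Exe 2, a log2 difference of -1.78. It was the only member of the complex with its lowest value in Ob + Exe 1. Gp5, the chain that thrombin cleaves, lies on the minus strand of chromosome 16 from 30307685 to 30310779. It had 16.8 in Ob 1, 9.31 in Ob 2, 6.46 in Ob + Exe 1 and 5.15 in Ob + Exe 2. Here the Ob libraries were the ones that stood apart, 1.81-fold from each other, and the log2 difference of -1.11 was -0.69 without Ob 1.

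Gp9 carries the GPIX chain needed for the complex to reach the surface, and was the most abundant of the 4 chain genes per length in each library. It lies on the plus strand of chromosome 6 from 87778072 to 87779768. It stood at 37.3 in Ob 1 and 38.1 in Ob 2, 31.1 in Ob + Exe 1 and 17.2 in Ob + Exe 2. The log2 difference of -0.70 was the smallest in the complex, and without Ob + Exe 2 it was -0.29. The proportions of the 4 chains varied between libraries. The ratio of Gp1ba to Gp9 was 0.211 and 0.187 in Ob against 0.101 and 0.0593 in Ob + Exe. It includes a shorter Gp1ba transcript listed at 0 in both Ob + Exe libraries. The longer Gp1ba transcript alone overlapped between the groups, and its ratio to Gp9 was not computed. For Gp1bb to Gp9 the ratio was 0.284 and 0.296 in Ob, 0.0703 in Ob + Exe 1 and 0.256 in Ob + Exe 2. For Gp5 to Gp9 the groups overlapped, from 0.208 to 0.452 over the 4 libraries.

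The RefSeq table (GRCm38.p6) held a promoter for 9 of the 10 genes, and none for Vwf. The 250 bases before the RefSeq start are printed for Gp1ba and Gp5, lower in both Ob + Exe libraries, for Gp9, with a smaller difference in the same complex, and for Itga2b, whose groups overlapped. Capitals mark words that GATA factors or ETS factors can bind, on either strand, families to which the megakaryocyte factors GATA1 and FLI1 belong. A GATA word is GATAA or GATAG, each counted only where it directly follows an A or a T. An ETS word is GGAAG, counted only where it directly follows an A or a C.
Gp1ba, chr11:70638872-70639121, plus strand: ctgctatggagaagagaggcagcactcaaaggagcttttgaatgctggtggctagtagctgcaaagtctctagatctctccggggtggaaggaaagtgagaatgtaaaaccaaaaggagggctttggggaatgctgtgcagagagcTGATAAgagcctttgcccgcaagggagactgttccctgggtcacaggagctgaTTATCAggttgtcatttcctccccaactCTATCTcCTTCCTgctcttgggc
Gp5, chr16:30310782-30311031, minus strand: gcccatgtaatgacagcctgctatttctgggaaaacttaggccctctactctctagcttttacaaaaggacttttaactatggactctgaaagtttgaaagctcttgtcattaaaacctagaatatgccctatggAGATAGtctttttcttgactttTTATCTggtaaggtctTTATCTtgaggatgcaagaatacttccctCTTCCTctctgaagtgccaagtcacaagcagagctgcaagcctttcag
Gp9, chr6:87777820-87778069, plus strand: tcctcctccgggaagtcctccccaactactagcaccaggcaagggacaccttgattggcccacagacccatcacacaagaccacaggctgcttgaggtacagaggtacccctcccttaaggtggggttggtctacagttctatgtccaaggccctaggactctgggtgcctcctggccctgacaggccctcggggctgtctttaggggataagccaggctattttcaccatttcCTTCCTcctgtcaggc
Itga2b, chr11:102469884-102470133, minus strand: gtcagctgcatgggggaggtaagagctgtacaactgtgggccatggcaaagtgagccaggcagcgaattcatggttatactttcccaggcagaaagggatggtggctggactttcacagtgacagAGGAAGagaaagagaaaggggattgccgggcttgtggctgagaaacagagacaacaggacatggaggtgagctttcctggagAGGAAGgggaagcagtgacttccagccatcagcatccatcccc

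The Gp1ba sequence held 3 GATA words, which began 104, 51 and 23 bases before the start, and 1 ETS word that began 16 bases before it. Gp5 also held 3 GATA words and 1 ETS word. Gp9 held 1 ETS word, which also began 16 bases before the start, and none of the GATA words as defined here. The letters GATAA do occur in the Gp9 sequence, but after a G, so they were not counted. Itga2b held 2 ETS words and none of the GATA words. Among the other members, Gp1bb held 1 word of each kind, Gp6 and Clec1b each held 1 GATA word, Fcer1g held 2 ETS words, and Itga2 held none of these letters. A GATA word was present in 5 of the 9 promoters (55.6%) and in 26.5% of the 32851 promoters of the table, and an ETS word in 6 of the 9 (66.7%) and in 39.2% of the table. The GATA and ETS words in the printed sequences did not overlap each other. A match is a description of the sequence and not a site of binding.

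For 2 genes of the complex the values depend on how reads were assigned to transcripts, as the bars of their transcripts show. StringTie divides the reads over a locus among the annotated transcripts. The shorter Gp1ba transcript had 4.63 and 4.22 in the Ob libraries and was listed at 0 in both Ob + Exe libraries, whereas the longer one had 3.23, 2.93, 3.13 and 1.02 in Ob 1, Ob 2, Ob + Exe 1 and Ob + Exe 2. For the longer transcript alone the groups overlapped, with a log2 difference of -0.74. The read equivalents of the gene given above join both transcripts.

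The span of Gp1bb is shared with Septin5 and with Gm49601, which are annotated on the same strand. The spliced Gp1bb transcript had a scaled FPKM of 8.27, 9.09, 2.15 and 0.779 in the 4 libraries, and the single-exon one had 2.30, 2.20, 0.0332 and 3.62, so that most of Gp1bb in Ob + Exe 2 came from the single-exon form. 1 Septin5 transcript runs over most of the Gp1bb span, and it had 12.0, 4.03, 10.6 and 0.792. Summed with it, Gp1bb came to 22.6 and 15.3 in Ob against 12.8 and 5.19 in Ob + Exe, which still did not overlap, with a log2 difference of -1.18. This sum was chosen after the values were seen. Septin5 over all its transcripts was at 54.5 and 58.9 in Ob against 64.2 and 65.9 in Ob + Exe. Gm49601 had 5.29, 5.54, 13.4 and 5.24 in the 4 libraries. Reads of Gp1bb and of these neighbours cannot be told apart where they share exons, so the value of Gp1bb is uncertain.

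**Figure D2:**
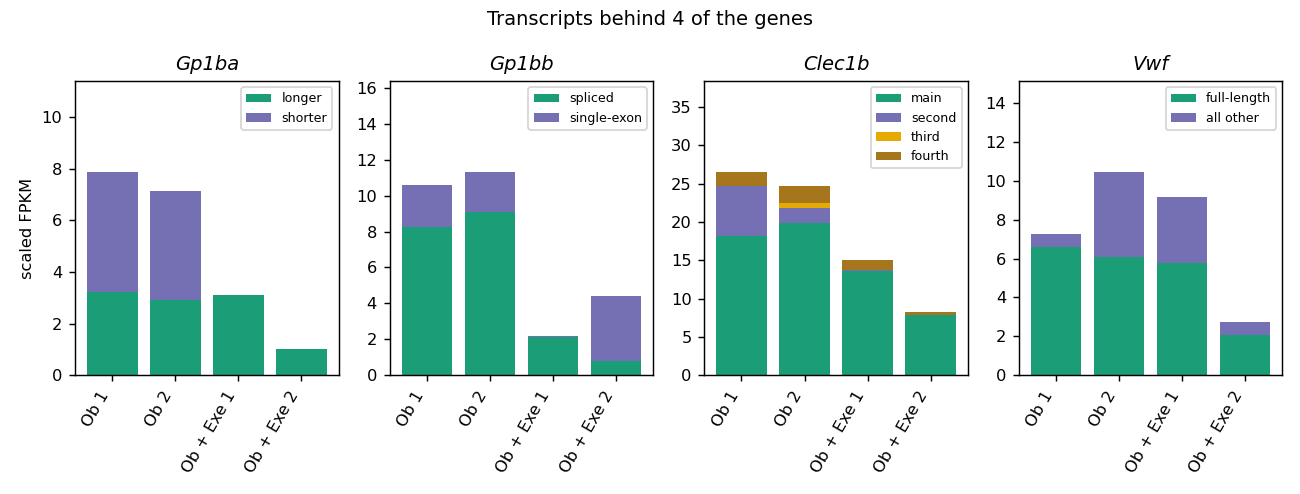
Stacked bars of scaled FPKM for the transcripts of Gp1ba, Gp1bb, Clec1b and Vwf in the 4 libraries, each panel with its own axis from 0. The shorter Gp1ba transcript is seen in the Ob libraries alone, and the full-length Vwf transcript has its lowest bar, 2.08, in Ob + Exe 2.

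Both receptors that signal through tyrosine kinases had lower values in the Ob + Exe libraries, and the adaptor of GPVI overlapped between the groups. Gp6, the main collagen receptor for activation, lies on the minus strand of chromosome 7 from 4363965 to 4397744. It stood at 2.83 in Ob 1 and 2.90 in Ob 2, 1.98 in Ob + Exe 1 and 1.10 in Ob + Exe 2. Both Ob + Exe libraries were below the Ob libraries, which hardly differed, and the log2 difference was -0.91. All of it came from the longer of the 2 annotated transcripts, since the shorter one was listed at 0 in the 4 libraries.

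Clec1b lies on the plus strand of chromosome 6 from 129397297 to 129409335, and its last bases overlap Clec9a. It had 26.4 in Ob 1, 24.7 in Ob 2, 15.0 in Ob + Exe 1 and 8.33 in Ob + Exe 2. The log2 difference was -1.19. Its main transcript, at 18.2 and 19.9 in Ob against 13.6 and 7.88 in Ob + Exe, accounted for nearly all of the gene after exercise. A second transcript had 6.47 and 1.97 in Ob against 0.0720 and 0.0547 in Ob + Exe. The main transcript alone gave a log2 difference of -0.87.

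Fcer1g, on the minus strand of chromosome 1 from 171229572 to 171234365, was by far the most abundant member, and serves many myeloid cells besides platelets. Its scaled FPKM was 317 in Ob 1, 249 in Ob 2, 239 in Ob + Exe 1 and 309 in Ob + Exe 2. The groups overlapped and the log2 difference was -0.05, which became 0.14 without Ob + Exe 1 and 0.12 without Ob 1. Of the 11 other genes found for chains that use Fcer1g or its relative, 2 were called, Clec4d (log2 difference 1.23) and Clec4e (1.11), both higher after exercise and both C-type lectin receptors of myeloid cells. They compare with 0.979% of all genes called in the higher direction. Tyrobp, a related adaptor, was at 279 and 187 in Ob against 185 and 309 in Ob + Exe, and Fcgr3, an IgG receptor that needs Fcer1g, was at 74.4 and 45.2 in Ob against 53.0 and 76.3 in Ob + Exe. Both had their higher Ob value in Ob 1 and their higher Ob + Exe value in Ob + Exe 2, the same order as Fcer1g.

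Vwf, the ligand, is stored in the granules of megakaryocytes and of endothelial cells. The gene lies on the plus strand of chromosome 6 from 125546774 to 125686679. It had 7.26 in Ob 1, 10.4 in Ob 2, 9.14 in Ob + Exe 1 and 2.73 in Ob + Exe 2. Ob + Exe 1 lay between the Ob libraries, so the groups overlapped, and the log2 difference of -0.78 became 0.06 without Ob + Exe 2. The full-length transcript of 8834 bases did not overlap between the groups, at 6.57 and 6.06 in Ob against 5.79 and 2.08 in Ob + Exe. The other 10 transcripts, most of them fragments of the gene, summed to 0.687, 4.36, 3.35 and 0.646.

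Itga2b makes up the fibrinogen receptor αIIbβ3 with Itgb3, and is an early marker of the megakaryocyte lineage. It lies on the minus strand of chromosome 11 from 102453297 to 102470122. Its scaled FPKM was 33.9 in Ob 1, 50.2 in Ob 2, 50.2 in Ob + Exe 1 and 15.1 in Ob + Exe 2. A single library, Ob + Exe 2, was low. The log2 difference was -0.58, and 0.28 without that library. The partner Itgb3 showed 24.5 and 16.8 in Ob, 22.3 in Ob + Exe 1 and 8.90 in Ob + Exe 2, also with its lowest value there.

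Itga2 pairs with Itgb1 to bind collagen and was the least abundant member. It lies on the minus strand of chromosome 13 from 114833081 to 114932100. The Ob libraries were at 1.39 and 1.40, Ob + Exe 1 was at 0.631 and Ob + Exe 2 at 0.452, from 674, 659, 262 and 177 read equivalents. The log2 difference was -1.24, and on this gene of low values it depended on the constant added before the logarithm, at -0.64 with 1 in place of 0.1. Its partner Itgb1, which is present on nearly all cells, was at 43.8 and 31.7 in Ob against 29.1 and 37.7 in Ob + Exe, with overlap.

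The 2 Ob + Exe libraries did not share one pattern, as the plot relative to the Ob mean shows. In Ob + Exe 2 every member but Fcer1g was at 13.6% to 45.6% of the Ob mean, and Fcer1g was at 109%. In Ob + Exe 1 the members were spread. Vwf and Itga2b were at 103% and 119% of the Ob mean and Gp9 was at 82.4%, while Gp1ba was at 41.7%, Gp1bb at 20.0%, Gp5 at 49.4% and Itga2 at 45.2%. Gp6 and Clec1b lay between, at 69.3% and 58.5%. Ob + Exe 2 was below Ob + Exe 1 for 8 of the 10 genes, the exceptions being Gp1bb and Fcer1g.

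**Figure D3:**
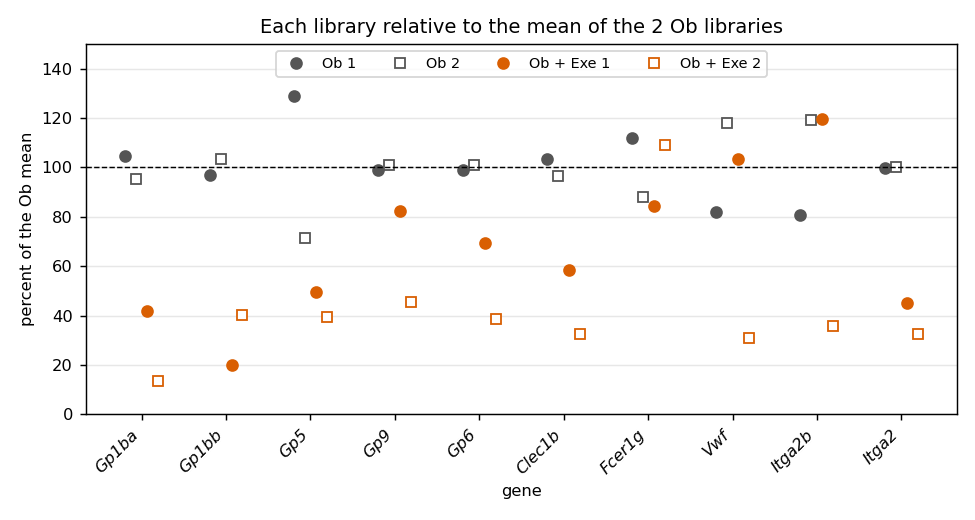
Scaled FPKM of each library as a percent of the mean of the Ob libraries (dashed line at 100), by gene, with the same symbols as in the plot of the 10 genes by library. The open orange squares (Ob + Exe 2) lie at or below 45.6% for all genes but Fcer1g, whereas the filled orange circles (Ob + Exe 1) range from 20.0% for Gp1bb to 119% for Itga2b.

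Pf4, the platelet factor of the α-granules, was set beside the receptors as a measure of megakaryocyte RNA that is not one of them. It was at 155 and 113 in Ob, at 150 in Ob + Exe 1 and at 51.0 in Ob + Exe 2. The ratios below depend on the choice of this single gene. Gng11, for example, another gene of megakaryocytes, was at 14.1 and 15.5 in Ob against 6.18 and 5.46 in Ob + Exe. Ratios to Gng11 were not computed. The ratio to Pf4 was lower in both Ob + Exe libraries for Gp1ba, at 0.0506 and 0.0631 in Ob against 0.0209 and 0.0200 in Ob + Exe, and for Clec1b. For Clec1b the margin was narrow, with 0.170 in Ob 1, the lower Ob library, against 0.163 in Ob + Exe 2. For Itga2 the ratio was also lower by a narrow margin, at 0.00896 and 0.0123 in Ob against 0.00422 and 0.00887 in Ob + Exe. For Gp1bb, Gp5, Gp9, Gp6, Vwf and Itga2b the ratios to Pf4 overlapped between the groups. The Gp1ba ratio to Pf4 includes the shorter Gp1ba transcript, listed at 0 in both Ob + Exe libraries. The longer Gp1ba transcript alone overlapped between the groups. The Clec1b ratio includes its second transcript, which was far lower in both Ob + Exe libraries. Ratios to Pf4 of single transcripts were not computed, so a drop in Gp1ba or Clec1b beyond that of Pf4 is not shown apart from the assignment of reads.

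The other genes of the receptor pathways were then examined, from a list of 40 partner chains, ligands, kinases, adaptors and inhibitors. Of its 39 genes tested, 3 were called, all lower, or 7.69% of the list beside 2.73% of all genes, and 19 had a negative and 20 a positive log2 difference, with a median of 0.00. The called genes were Mpig6b (log2 difference -1.85), an inhibitory receptor of megakaryocytes and platelets, Lair1 (-1.08), an inhibitory collagen receptor of leukocytes, and Col1a1 (-1.02), a collagen chain. Mpig6b was at 7.88 and 8.15 in Ob, at 4.57 in Ob + Exe 1 and at 0.981 in Ob + Exe 2. As for Gp1ba, the groups did not overlap and Ob + Exe 2 was the lowest library. In limma, the called genes of all lists had Benjamini-Hochberg adjusted p-values of 0.943 to 0.960, and no gene of the whole table had one under 0.05, against 933 genes with an unadjusted p under 0.05. Without Ob 1, and also without Ob 2, limma called 0 genes of the list and none had an unadjusted p under 0.05, and without Ob + Exe 1 it called 5. Of 13 alternatives, Lair1 was called in 9, Mpig6b in 8 and Col1a1 in 6. Lair1 had a log2 difference of -0.45 by limma voom on read equivalents, and Col1a1 had -0.72 with a pseudocount of 1.

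The shared signalling machinery did not pass the thresholds. Syk, the kinase that binds the motifs of Fcer1g and CLEC-2, was at 50.3 and 56.7 in Ob against 64.2 and 55.8 in Ob + Exe. The adaptor Lat had a log2 difference of -0.05, the adaptor Lcp2 one of 0.15 and the phospholipase Plcg2 one of -0.10. Fermt3 and Tln1, which activate integrins from inside the cell, had log2 differences of 0.00 and -0.15. These genes are used by many leukocytes of the marrow. Podoplanin (Pdpn), the ligand of CLEC-2, was at 0.187 and 0.268 in Ob against 0 and 0.723 in Ob + Exe, and Adamts13, the protease that trims VWF, did not reach the minimum mean FPKM.

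In the list of 58 other megakaryocyte and platelet genes, 9 were called and all were lower, 15.5% of the list beside 2.73% of all genes. A negative log2 difference was found for 43 of the 58, and for 52.1% of all genes tested. The median of the list was -0.51. Values were lower in both Ob + Exe libraries for 28 of them (48.3%, beside 18.7% of all genes) and higher in both for 4. Besides Mpig6b, the called genes were Trpc6 (log2 difference -1.79), a calcium-permeable channel, Tubb1 (-1.50), the β-tubulin of platelets, Alox12 (-1.41), the platelet lipoxygenase, and Gng11 (-1.33), a G protein subunit. Also called were F2rl2 (-1.25), a thrombin receptor, Rab27b (-1.17), which acts in granule release, Arhgap6 (-1.11) and Treml1 (-1.05), a receptor stored in platelet granules. All 9 were lower in Ob + Exe 2 than in Ob + Exe 1, as were 42 of the 58 genes. The share of all genes lower in Ob + Exe 2 than in Ob + Exe 1 was not computed. Of this megakaryocyte list, 3 genes are also in the receptor pathway list above.

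The number of called megakaryocyte genes depended on the libraries used. With a library left out, the lone library of its group is assumed to vary like the other group, which alone gives the spread, so these counts also move with which spread is left. The number was 3 without Ob 1, 1 without Ob 2, 24 without Ob + Exe 1 and 6 without Ob + Exe 2. Gng11, at 14.1 and 15.5 in Ob against 6.18 and 5.46 in Ob + Exe, was called with each of these left out. The chemokine gene Ppbp was not called (log2 difference -0.95).

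The transcription factors of the lineage had smaller differences. Gata1 was at 70.2 and 87.8 in Ob against 99.3 and 76.8 in Ob + Exe, a log2 difference of 0.15. Nfe2 (0.13) and Fli1 (0.07) were also near 0. Over the 8 factors Gata1, Nfe2, Fli1, Runx1, Tal1, Gfi1b, Mef2c and Zfpm1 the largest difference in size was 0.494 for Zfpm1, and none was called. Erythroid cells and mast cells also express several of them.

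**Figure D4:**
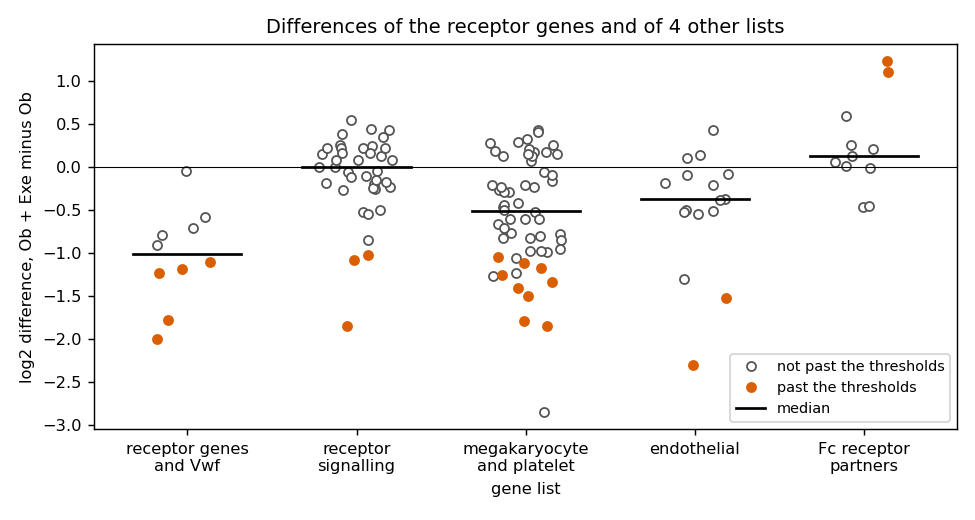
Log2 difference (Ob + Exe minus Ob) of each tested gene, for the 10 members (the receptor genes together with Vwf) on the left and 4 other lists, with filled points past the thresholds of the study's methods, open points not past them, and a bar at the median. The medians are -1.01 for the members, 0.00 for receptor signalling, -0.51 for megakaryocyte and platelet genes, -0.37 for endothelial genes and 0.13 for Fc receptor partners.

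Markers of other marrow cells were measured beside these genes. Of 16 endothelial genes, the other source of Vwf, 2 were called and both were lower (12.5%, beside 2.73% of all genes), Ly6c1 (log2 difference -2.31) and Plvap (-1.53). The median was -0.37, and 9 did not overlap between the groups, all lower in Ob + Exe (56.3%, beside 18.7% of all genes). Cdh5, the endothelial cadherin, was at 1.34 and 1.03 in Ob against 0.983 and 0.644 in Ob + Exe, and the summed list was at 45.3 to 50.1 in Ob against 31.1 to 46.4 in Ob + Exe. The B lineage list was the only one of the 12 lists with no overlap of its summed values, at 405 to 506 in Ob against 317 to 361 in Ob + Exe, with Cd79a and Igll1 called lower among 13 genes (15.4%, beside 2.73% of all genes) and 8 lower in both Ob + Exe libraries (61.5%, beside 18.7%). The summed neutrophil, erythroid and monocyte and macrophage lists overlapped, and none of their genes was called. Of the 16 neutrophil genes, 15 had a positive log2 difference and 1 a negative one, with a median of 0.31. Negative differences were found for 7 of 11 erythroid genes, 6 of 12 monocyte and macrophage genes and 52.1% of all genes tested. The mast and basophil list had 1 called gene, Hdc (1.13), which was higher, and 2 of its 10 genes at 0 in all libraries. The T and natural killer list (46.3 to 79.0 in Ob, 54.8 to 82.6 in Ob + Exe) and the stem and progenitor list (42.4 to 46.1 in Ob, 31.5 to 46.0 in Ob + Exe) had no called gene. The mesenchymal and fibroblast list had Col1a1 alone. The part that these cells have in the values of the receptor genes was not tested.

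Genes with the pattern most like the mean of the 10 members were sought among 12400 other genes (mean FPKM 1 or more), by the root mean square distance between log2 values centred over the 4 libraries. The nearest were Med12l (distance 0.0732), Rnu73b (0.0844), Fpgs (0.0883), Mif (0.0897) and H1f10 (0.0910). Med12l, a Mediator subunit gene whose span holds the platelet ADP receptor gene P2ry12, was at 1.37 and 1.53 in Ob against 0.843 and 0.534 in Ob + Exe. Mif, a cytokine gene, was at 77.9 and 69.4 in Ob against 43.5 and 31.1 in Ob + Exe. The members themselves lay at distances from 0.0772 (Gp6) to 0.698 (Gp1bb). All of them but Gp6 were less like their own mean than each of the nearest genes named above. Gp6 was less like it than Med12l alone. Treml1 was at rank 12. With 4 libraries such likeness is a description only.

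The size of the differences varied with the libraries used, as the plot with each library left out shows. For Gp1ba, Gp1bb, Gp5, Gp9, Gp6, Clec1b and Itga2 a value below 0 in each case follows from the lack of overlap between the groups and adds nothing to it. The log2 difference ranged from -2.76 to -1.24 for Gp1ba, -2.28 to -1.30 for Gp1bb and -1.44 to -1.04 for Itga2. The difference of Clec1b ranged from -1.61 to -0.78 and that of Gp6 from -1.31 to -0.52. Vwf and Itga2b were above 0 without Ob + Exe 2, and Fcer1g was above 0 without Ob + Exe 1 and without Ob 1. The median over the 10 genes was -1.37 without Ob + Exe 1 and -0.65 without Ob + Exe 2.

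**Figure D5:**
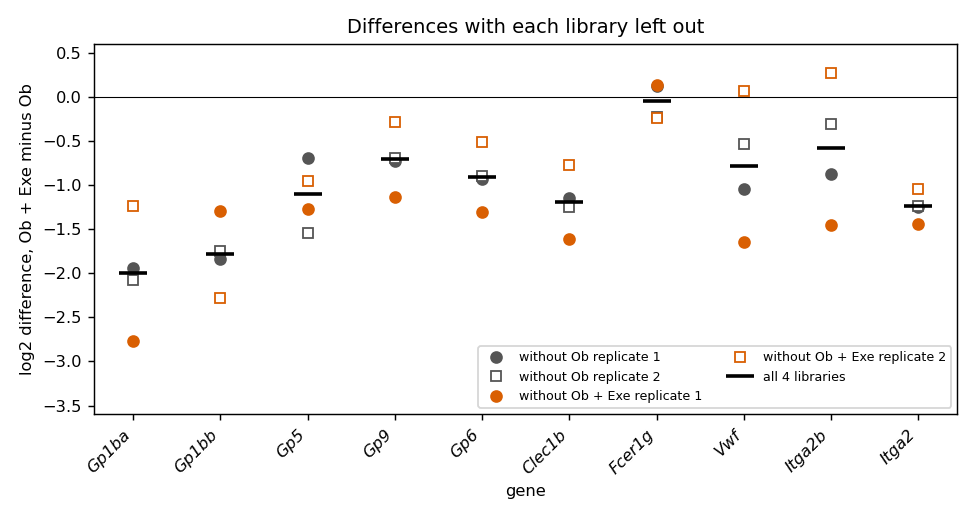
Log2 difference (Ob + Exe minus Ob) of each gene with all 4 libraries (black bar) and with each library left out (symbols). The open orange squares, without Ob + Exe 2, lie above 0 for Vwf (0.06) and Itga2b (0.28) and at -1.24 for Gp1ba.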

How the data were processed

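Poly-A RNA of marrow collected by centrifugation was sequenced as paired reads of 150 bases. The authors used fastp for trimming, took out rRNA reads, ran HISAT2 against GRCm38 and SAMtools, then StringTie with GENCODE vM25. Tool versions are not given in the sources used here. The authors deposited, per library, the coverage signal of each transcript (not scaled to depth) and its FPKM. Whole reads could not be recovered from coverage (3.58% to 5.36% of transcripts within 0.01 of a whole number), so the count test of the study (DESeq2) was replaced.

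FPKM were summed by gene and divided by median-of-ratios factors (0.949 to 1.03, from genes above 0 in all libraries and averaging 1 FPKM or more). Genes averaging 0.1 FPKM or more were fitted as log2(FPKM + 0.1) with limma 3.58.1 in R 4.3.3 (intensity trend, no block), which understates the change of low genes. Calls used an unadjusted p under 0.05 and a log2 difference beyond 1. The fit was tested on simulated data. The alternatives were other minimum values, pseudocounts, scalings and transcripts, limma voom with TMM factors, no trend, a replicate block and leaving out each library. Python 3.11.15, pandas 2.3.3 and matplotlib 3.10.9 were used.

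The members, gene lists and motif words were chosen with earlier results of these data known, and the lists were written by hand. The text names the members, the called genes of each list, partners and lineage genes from a written list (Pf4, Ppbp, Gata1 and Cdh5 among them), overlapping genes and the 5 genes most like their mean. Nfe2, Fli1, Runx1, Tal1, Gfi1b, Mef2c, Zfpm1, Fermt3, Tln1, P2ry12 and the mesenchymal markers fall outside that rule and were chosen after their values were seen. The sources do not say that a replicate number pairs mice.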

Additional observations from a re-analysis of the deposited data

How the results depend on the processing

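With 2 libraries a group, the smallest two-sided p of an exact permutation test is 0.333. The part of depth in the spread between libraries was not tested. The 690 calls over all genes became 267 with a minimum mean FPKM of 1, 224 with a pseudocount of 1, 455 with limma voom, 1061 without the intensity trend, and 601 to 1853 with a library left out. Quantile normalization gave 416 lower and 246 higher calls in place of 508 and 182. The receptor signalling list had 1 called gene without a minimum and 1 with a pseudocount of 1, and 0 to 5 with a library left out, and the megakaryocyte list had 1 to 24. The median of the 10 members was -0.67 with a pseudocount of 1, and -1.37 to -0.65 with a library left out. Summed lists without overlap numbered 2 without scaling and 4 to 11 with a library left out, where 1 library stands in a group and overlap is less likely by construction. With the most abundant transcript alone, Gp1ba had a log2 difference of -0.78 and Gp1bb one of -2.68. The 7 members lower in both Ob + Exe libraries were also 7 without scaling and with quantile normalization. Otherwise the cause of these changes was not tested.

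Same-numbered libraries are not known to be paired. The correlation of their deviations was -0.106 across all genes tested and -0.235 across those averaging 1 FPKM or more. The replicate block gave 776 calls, 28 with an adjusted p under 0.05 in limma, and 2 and 11 calls in the receptor signalling and megakaryocyte lists. The crossed pairing, chosen after seeing the data, gave 782 calls, 6 with an adjusted p under 0.05.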
